A study of Mus musculus with 24 samples.

Results

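The genes described here are the clock repressors Per1, Per2, Per3, Cry1, Cry2 and Ciart, the clock output genes Dbp, Tef and Hlf, which encode the PAR bZIP transcription factors, and Nfil3, the bZIP repressor that opposes them. They were chosen by name, as the probes whose annotated symbol was among these 10 genes. The annotation gave 16 such probes of the 46632 on the array, for 9 of the 10 genes, and Nfil3 is named only. Of the 9 genes, 7 passed the filter on dim probes and were tested among 16262 features in all. The single probes of Cry1 and Hlf were detected on 0 of 24 arrays, so no value is given for these genes beyond their being at background.

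The samples were triceps surae, the calf muscle group, of C57/Bl6 mice aged 4 months. Mice were wild type or lacked MuRF1, a ubiquitin ligase of muscle that is the product of Trim63, and each genotype was either left untreated or drank dexamethasone, a synthetic glucocorticoid, at 3 mg/kg. Exposure lasted 3 or 14 days, and each length had its own untreated littermate groups, called here the 3-day arm and the 14-day arm. The 8 groups held 3 arrays each, and the labels do not say whether each array came from its own animal, so p-values measure the spread between these arrays. No source used here gives the hour at which muscle was collected, the sex of the mice or the construction of the knockout allele, so a difference in collection time between groups cannot be told apart from the group itself.

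In the mammalian clock, CLOCK and BMAL1 bind E-boxes and drive the Per, Cry, Ciart and Dbp genes, and the PER and CRY proteins, with CIART, then repress CLOCK and BMAL1. DBP, TEF and HLF activate genes through D-boxes, which NFIL3 occupies as a repressor, so that genes such as Per3 are driven through D-boxes as well. Glucocorticoids reach this loop from outside, because the glucocorticoid receptor binds next to Per1 and Per2, and in muscle the messages of these genes rise and fall over the day.

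Promoters of 4 members are shown because these genes are read together below, and because the windows differ in which known clock elements they hold. Sequences are those of RefSeq on GRCm38.p6, 250 bases before to 50 bases after the start of the gene, and 9 of the 10 genes were held by the table, Per2 being named only. Capitals mark the E-box CACGTG, and in Per3 the D-box TTATGTAA. Both strands were searched. The E-box occurred in 7.15% and this D-box in 0.938% of 32851 promoters of the same length. Ciart lies on the minus strand at chr3:95882179-95882478, Per3 on the minus strand at chr4:151044616-151044915, Per1 on the plus strand at chr11:69098699-69098998 and Dbp on the plus strand at chr7:45704997-45705296.
Ciart: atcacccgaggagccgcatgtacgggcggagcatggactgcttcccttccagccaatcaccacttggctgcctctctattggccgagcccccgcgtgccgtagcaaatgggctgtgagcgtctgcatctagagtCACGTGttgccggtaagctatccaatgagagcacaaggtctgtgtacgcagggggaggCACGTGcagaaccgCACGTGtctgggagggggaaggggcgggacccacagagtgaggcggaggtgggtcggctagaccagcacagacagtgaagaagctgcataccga
Per3: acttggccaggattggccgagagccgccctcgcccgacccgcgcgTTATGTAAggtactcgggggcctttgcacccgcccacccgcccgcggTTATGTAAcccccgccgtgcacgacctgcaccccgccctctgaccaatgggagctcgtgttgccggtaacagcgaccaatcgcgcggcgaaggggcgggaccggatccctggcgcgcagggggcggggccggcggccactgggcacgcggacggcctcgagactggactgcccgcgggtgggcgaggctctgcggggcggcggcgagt
Per1: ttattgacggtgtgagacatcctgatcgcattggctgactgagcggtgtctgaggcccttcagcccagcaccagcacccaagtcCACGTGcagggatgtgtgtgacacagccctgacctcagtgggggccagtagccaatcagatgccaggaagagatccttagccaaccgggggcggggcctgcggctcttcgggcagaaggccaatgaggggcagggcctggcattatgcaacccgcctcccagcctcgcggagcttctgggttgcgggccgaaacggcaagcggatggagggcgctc
Dbp: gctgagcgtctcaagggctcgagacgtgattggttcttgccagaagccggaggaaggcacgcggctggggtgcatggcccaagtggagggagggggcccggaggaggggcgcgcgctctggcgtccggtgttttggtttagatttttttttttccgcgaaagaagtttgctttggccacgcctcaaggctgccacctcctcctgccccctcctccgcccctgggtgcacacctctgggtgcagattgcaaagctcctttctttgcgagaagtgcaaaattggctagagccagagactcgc

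In the Ciart window E-boxes stood at -116 to -111, -58 to -53 and -44 to -39 relative to the start of the gene. The Per3 window held D-boxes at -205 to -198 and -158 to -151, and the first of 2 Per1 starts held an E-box at -166 to -161. The 2 annotated starts of Tef each had an E-box, at -127 to -122 and at -138 to -133. The variant CACGTT, found in 4.68% of promoters, stood at -166 to -161 in Cry2 and at -79 to -74 in Cry1, which also had an E-box at -60 to -55. Hlf had the cyclic AMP response element TGACGTCA, found in 1.79%, at -9 to -2. The Dbp window held none of the 7 motifs searched, and neither did that of Nfil3. The other motifs were the D-box TTACGTAA at 0.119%, the glucocorticoid response element at 0.0396% and its shorter core TGTTCT at 19% of promoters. No member window held the full glucocorticoid response element, and the core stood in 1 of them, at the second Tef start. A window of 300 bases without a match says only that these letters are not in it.

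Across the 24 arrays, the median signal of a probe lay between 81.0 and 101.9, and 29% to 36.1% of probes counted as detected. Trim63 lay 3.21 to 5.08 lower on the log2 scale in knockout than in wild-type muscle in all 4 comparisons, as the labels require. Fkbp5, a classical target of the glucocorticoid receptor read here as a sign of exposure, rose by 2.57 to 3.17 under dexamethasone in all 4. It was also summed on the linear scale with Tsc22d3, Zbtb16 and Sgk1, the other genes of this check. In wild type untreated and treated arrays summed to 1817 to 2497 and 3017 to 3601 at 3 days. At 14 days they summed to 1385 to 1942 and 3233 to 3761. Knockout sums overlapped at 3 days, at 2161 to 3046 and 2226 to 3792. At 14 days they ran from 1367 to 2444 and from 2455 to 3371. Markers of fast skeletal muscle, 5 of 6 tested, summed to 98641 to 133572 per array on the linear scale, and all 4 lymphocyte markers stayed untested as undetected. The third array of the knockout 3-day dexamethasone group stood apart on the first principal component, at 70.6 against -32.0 to 23.8 for all others.

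Most of the measured members were lower under dexamethasone than in untreated muscle of the same arm and genotype. The hour of collection is not given, so its part in these differences cannot be told apart. Dbp fell in both genotypes at both times, between 8.32-fold and 12.8-fold, and was the only member to pass the threshold in wild-type muscle at 14 days. Per2, Per3, Ciart and Tef fell in the other 3 comparisons, and Per1 fell in knockout muscle at 14 days alone among the 4. No member rose, and Cry2 passed in none. The counts below are set, in each comparison, against the share of all 16262 features called lower by limma at an adjusted p under 0.05. The genes were chosen with earlier results of these data known, so these shares are a description and not a test of the set.

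In wild-type muscle 5 of 7 tested members fell at 3 days, where 1.93% of all features were called lower, and 1 of 7 fell at 14 days, where 1.76% were. In knockout muscle 5 of 7 fell at 3 days against 2.50% of all features, and 6 of 7 fell at 14 days against 2.16%. The median log2 fold change of the 7 was -1.25 at 3 days and -0.20 at 14 days in wild type, and -1.18 and -1.26 in the knockout, while the median over all features lay between -0.01 and 0.00. Treated and untreated arrays did not overlap for 6, 3, 5 and 6 of the 7 members in these comparisons in the same order, beside 22.6%, 19.6%, 19.2% and 17.3% of all features. Each treated group was compared with the untreated group of its own arm and genotype, so the level of that untreated group enters each value.

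**Figure D1:**
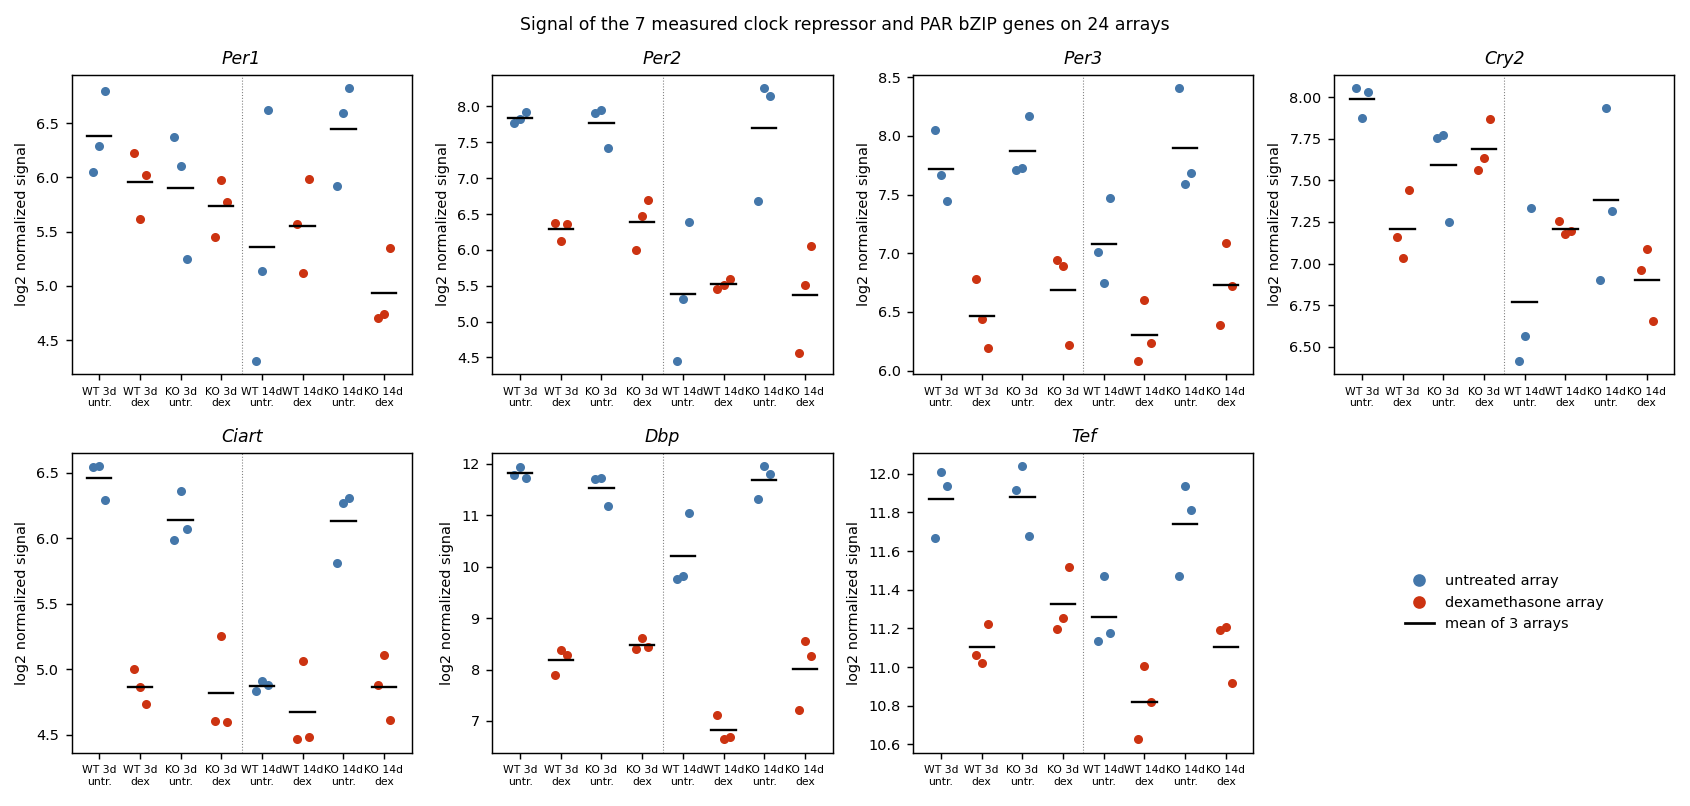
Log2 normalized signal (vertical axis, its range set for each gene) of the 7 measured members on each of the 24 arrays, by group, with untreated arrays in blue, dexamethasone arrays in red and a bar at the mean of 3 arrays. Dbp falls from between 9.76 and 11.95 to between 6.65 and 8.61 with no overlap in any group pair, and the untreated wild-type arrays of the 14-day arm sit low for Per2, Ciart and Cry2.

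Marker lists of other cells of muscle moved with the treatment as well. The 5 fibroblast markers summed to 7349 to 11236 on untreated and 5564 to 7541 on treated arrays, with 3 of 5 called lower in each of the 4 comparisons. The 3 tested of 6 symbols listed for macrophages summed to 505 to 914 untreated and 315 to 527 treated. Of 6 red blood cell markers 5 were tested, and they summed to 7077 to 11599 in the 3-day dexamethasone groups and to at least 34326 elsewhere. The 4 tested of 5 adipocyte markers summed to 355 to 949 on untreated and 520 to 1993 on treated arrays, higher without overlap in all pairs but the knockout at 14 days, although 1 of the 4 was called, in wild type at 14 days. Slow muscle and Schwann cell markers had 0 calls in these comparisons, and endothelial markers had 1. The part of these cells in the members' values was not tested, and in bulk muscle fewer cells of a type and less message per cell cannot be told apart.

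The Period genes encode the limiting proteins of the repressor complex. Per1 is known in mouse as a gene that glucocorticoids induce quickly. Its log2 signals were 6.05, 6.29 and 6.79 on untreated and 6.23, 5.61 and 6.02 on treated wild-type arrays of the 3-day arm. At 14 days they were 4.31, 5.14 and 6.62 untreated and 5.57, 5.12 and 5.98 treated. The arrays overlapped at both times, and the untreated group of the 14-day arm was the most scattered of the 8. In the knockout the 3-day values were 6.37, 6.10 and 5.25 untreated against 5.45, 5.98 and 5.77 treated, and the 14-day values 5.92, 6.59 and 6.82 against 4.70, 4.74 and 5.35.

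Only the last of these Per1 pairs separated, with all 3 treated arrays below all untreated ones. The log2 fold changes were -0.42 (SE 0.396, adjusted p = 0.792) and 0.20 (adjusted p = 0.930) in wild type at 3 and 14 days, and -0.17 (adjusted p = 0.854) and -1.51 (adjusted p = 0.0320) in the knockout. The 14-day knockout call rested on 1 of the 2 Per1 probes. The other gave -0.05, from 4.85 untreated to 4.79 treated, and was detected on 2 and 1 of 3 arrays. The dimmest detected probes of these groups lay at 4.70 to 4.76. The part of this limit in the disagreement of the probes was not tested. The call was lost in 6 of 34 other settings, with an adjusted p of up to 0.166. Among these were fits without untreated replicate 2 or 3 or treated replicate 1 or 2. The representing probe was detected on 1 of 3 arrays of the treated 14-day knockout group.

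Per2, the partner of Per1 in the same complex, read 7.77, 7.82 and 7.92 on untreated and 6.37, 6.13 and 6.36 on treated wild-type arrays at 3 days. In the knockout these were 7.91, 7.95 and 7.43 against 5.99, 6.47 and 6.70. All treated arrays lay below all untreated ones in both genotypes. The falls were 2.93-fold in wild type (log2 -1.55, SE 0.394, adjusted p = 0.0230) and 2.60-fold in the knockout (-1.38, adjusted p = 0.0404), and these calls were lost in 8 and 9 of 34 other settings, with adjusted p values of up to 0.0971 and 0.120. In wild type leaving out any 1 of the 6 arrays ended the call. In the knockout the same held for each array but treated replicate 3, and for replicate 2 of either 3-day wild-type group.

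At 14 days the genotypes differed in their untreated level of Per2. Wild-type arrays read 4.46, 5.32 and 6.38 untreated and 5.45, 5.52 and 5.59 treated, so that the treated arrays lay inside the range of the untreated ones (log2 0.13, adjusted p = 0.958). Knockout arrays read 6.68, 8.26 and 8.15 untreated and 4.56, 5.51 and 6.06 treated, without overlap. There Per2 fell 4.98-fold (log2 -2.32, SE 0.394, adjusted p = 0.000854). The representing probe was detected on 2 of 3 arrays in the untreated wild-type group and in the treated knockout group of this arm. The lowest values of these groups, 4.46 and 4.56, lay below their dimmest detected probes, at 4.70 to 4.76. The second Per2 probe was detected on 1 of 24 arrays and adds no check.

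Per3, a Period gene dispensable for the core loop in mouse, separated treated from untreated arrays within each pair of groups. At 3 days it read 8.05, 7.67 and 7.44 untreated and 6.78, 6.44 and 6.19 treated in wild type, and 7.71, 7.73 and 8.17 against 6.94, 6.90 and 6.22 in the knockout. At 14 days wild-type arrays read 7.01, 6.75 and 7.47 untreated and 6.08, 6.60 and 6.23 treated. The 14-day knockout arrays read 8.41, 7.59 and 7.69 untreated and 6.39, 7.08 and 6.72 treated. In all 4 pairs every treated array was below every untreated one of the same arm and genotype.

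Per3 fell 2.38-fold at 3 days in wild type (log2 -1.25, SE 0.252, adjusted p = 0.00344), and in the knockout 2.27-fold after 3 days (adjusted p = 0.00504) and 2.24-fold after 14 (adjusted p = 0.00779). In wild type at 14 days the log2 difference was -0.77 and missed the threshold (adjusted p = 0.118). A second Per3 probe passed at 3 days in both genotypes, at -1.21 and -0.85, and gave -0.65 and -0.36 at 14 days in wild type and knockout, short of the threshold. The 14-day knockout call was lost without treated replicate 1 (adjusted p = 0.0688) and with the mean of the probes (adjusted p = 0.0868), and the 3-day knockout call with only the compared groups in the fit (adjusted p = 0.0536). The third probe was detected on 6 of 24 arrays and passed in none of these 4 comparisons. The promoter of this gene is the member window that carries a pair of D-boxes, shown above.

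Cry2 encodes a cryptochrome, the subunit that blocks CLOCK and BMAL1 directly. It read 8.05, 7.88 and 8.03 on untreated and 7.16, 7.03 and 7.44 on treated wild-type arrays of the 3-day arm, without overlap, for a log2 difference of -0.78 that stayed just above the threshold (SE 0.227, adjusted p = 0.0563) and passed it in 8 of 34 other settings, at adjusted p values down to 0.00131. The other 3 pairs overlapped. Their log2 differences were 0.44 in wild type at 14 days (adjusted p = 0.446) and in the knockout 0.10 after 3 days (adjusted p = 0.859) and -0.48 after 14 (adjusted p = 0.334). Its second probe was detected on 0 arrays. The same held for the Cry1 probe, whose raw signals stayed between 70.8 and 98.6.

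Ciart encodes CHRONO, a repressor that binds BMAL1. At 3 days it read 6.55, 6.55 and 6.29 on untreated and 5.0, 4.86 and 4.74 on treated wild-type arrays, and 5.99, 6.36 and 6.07 against 4.61, 5.26 and 4.60 in the knockout. The arrays of neither pair overlapped, and the gap was wide beside the spread in wild type but close to the span of the treated arrays in the knockout. The fall was 3.02-fold in wild type (log2 -1.60, SE 0.192, adjusted p = 1.14e-05) and 2.50-fold in the knockout (adjusted p = 9.58e-05).

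At 14 days the wild-type Ciart arrays read 4.83, 4.91 and 4.88 untreated and 4.47, 5.06 and 4.48 treated, so that the untreated arrays lay inside the range of the treated ones. The log2 difference was -0.20 (adjusted p = 0.778). Knockout arrays of that arm read 5.81, 6.27 and 6.31 untreated and 4.88, 5.11 and 4.61 treated, a 2.40-fold fall without overlap (adjusted p = 0.000228). The low values of this gene sat near the detection limit, since its probe was detected on 1 of 3 treated arrays of the wild type at 14 days, and in the knockout on 1 of 3 at 3 days and 2 of 3 at 14 days.

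Dbp, the most strongly rhythmic of the PAR bZIP factors in mouse tissues, showed the deepest change among the members. Untreated wild-type arrays of the 3-day arm read 11.78, 11.93 and 11.73 and treated ones 7.90, 8.38 and 8.29. In the knockout these were 11.70, 11.73 and 11.18 against 8.40, 8.61 and 8.43. The gap between the groups was several times any distance within them. Dbp fell 12.3-fold in wild type (log2 -3.62, SE 0.298, adjusted p = 3.56e-08) and 8.32-fold in the knockout (log2 -3.06, adjusted p = 4.13e-07).

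Dbp fell in the 14-day arm too. Wild-type arrays read 9.76, 9.82 and 11.04 untreated and 7.11, 6.65 and 6.68 treated, a 10.5-fold fall (log2 -3.39, adjusted p = 1.35e-07). Knockout arrays read 11.32, 11.95 and 11.80 untreated and 7.21, 8.56 and 8.26 treated, a 12.8-fold fall (log2 -3.68, adjusted p = 6.01e-08). Every treated array in the series lay below every untreated array. By group mean the order ran from untreated wild type of the 3-day arm at 11.8 (SD 0.104, n = 3), untreated knockout of the 14-day arm at 11.7 (SD 0.327) and untreated knockout of the 3-day arm at 11.5 (SD 0.309) to untreated wild type of the 14-day arm at 10.2 (SD 0.722). The treated groups followed, with knockout at 3 days at 8.48 (SD 0.110), wild type at 3 days at 8.19 (SD 0.254), knockout at 14 days at 8.01 (SD 0.709) and wild type at 14 days at 6.82 (SD 0.256). The 3 highest groups did not differ beyond their spread, and among treated groups the knockout at 14 days overlapped both 3-day groups.

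Tef, the PAR bZIP factor also known from thyrotroph cells, moved less. Untreated and treated arrays read 11.67, 12.01 and 11.93 against 11.06, 11.02 and 11.22 in wild type at 3 days, and 11.92, 12.04 and 11.68 against 11.20, 11.26 and 11.52 in the knockout. At 14 days the values were 11.13, 11.47 and 11.18 against 10.63, 11.01 and 10.82 in wild type, and 11.47, 11.94 and 11.81 against 11.19, 11.21 and 10.92 in the knockout. Treated arrays were below untreated ones throughout these 4 pairs, by small distances. Tef fell 1.70-fold in wild type at 3 days (log2 -0.77, SE 0.156, adjusted p = 0.00386), and in the knockout 1.47-fold after 3 days (adjusted p = 0.0376) and 1.55-fold after 14 (adjusted p = 0.0214). In wild type at 14 days the log2 difference of -0.44 missed the threshold (adjusted p = 0.166).

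These Tef calls rested on 1 of 3 probes. The other 2 gave log2 differences between -0.18 and 0.15 in the 4 comparisons and passed in none, and with the mean of the 3 probes all 3 calls were lost, at adjusted p values of 0.577 to 0.664. They were also lost with median scaling, at 0.106 to 0.319, and the knockout calls without untreated replicate 1 or 2 or treated replicate 1 or 2 at 3 days, and untreated replicate 2 or 3 or treated replicate 1 or 3 at 14 days. The Hlf probe, detected on 0 arrays, kept raw signals between 78.4 and 100.9.

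**Figure D2:**
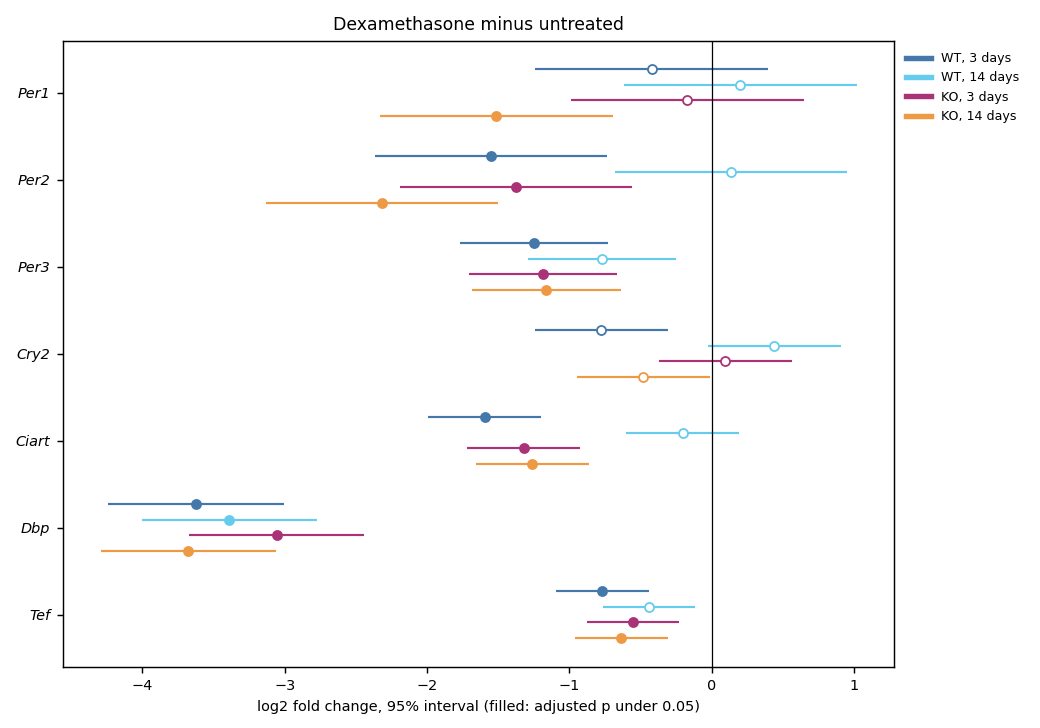
Log2 fold change of dexamethasone over untreated (horizontal axis) for the 7 measured members in wild type (WT) and knockout (KO) at 3 and 14 days, with 95% intervals as lines and filled points where the adjusted p was under 0.05. Dbp lies between -3.68 and -3.06 in all 4 comparisons, and the WT 14-day points of Per2, Ciart and Cry2 lie at 0.13, -0.20 and 0.44.

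**Figure D3:**
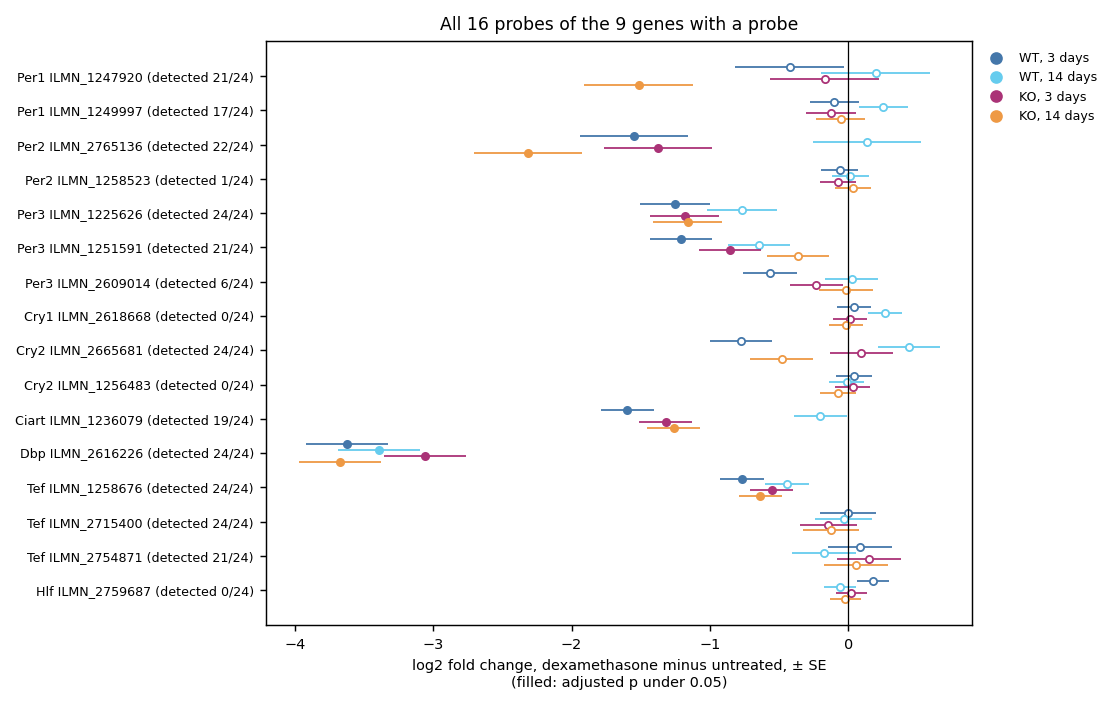
Log2 fold change of dexamethasone over untreated (horizontal axis, lines are ± 1 SE) for each of the 16 probes, with the number of arrays on which a probe was detected. The probes of Tef disagree with each other, and those of Per1 part in KO at 14 days, where the dimmer probe sat near the detection limit. A pair of Per3 probes fall together at 3 days, at -1.25 and -1.21 in WT.

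The untreated groups of the arms were then compared, because each dexamethasone value is read against them. In wild-type muscle 4 of 7 members were lower in the 14-day than in the 3-day arm, where 0.0861% of all features were called lower, 14 of 16262. The median log2 difference of the 7 was -1.21, beside 0.00 over all features, and 5 of 7 did not overlap, beside 19.7% of all features. Per2 was 5.46-fold lower (log2 -2.45, SE 0.394, adjusted p = 0.00491), Ciart 3.01-fold lower (log2 -1.59, SE 0.192, adjusted p = 0.000175), Dbp 3.05-fold lower (log2 -1.61, adjusted p = 0.0200) and Cry2 2.32-fold lower (log2 -1.21, adjusted p = 0.0206).

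The arrays behind these values are given above for all but Cry2. It read 8.05, 7.88 and 8.03 in the 3-day arm and 6.42, 6.57 and 7.33 in the 14-day arm. Per2 was detected on 2 of 3 untreated wild-type arrays of the 14-day arm. Ciart was at 4.87 (SD 0.040, n = 3) in the untreated 14-day group and at 6.46 (SD 0.147, n = 3) in the 3-day group. In that 14-day group the dimmest detected probes lay at 4.70 to 4.75, close to the 4.87 of Ciart. The differences of Per1 at -1.02 (adjusted p = 0.326), Per3 at -0.64 (adjusted p = 0.331) and Tef at -0.61 (adjusted p = 0.106) missed the threshold. Ciart and Per2 kept their calls in all 34 other settings, while Dbp lost its call in 7 and Cry2 in 6, at adjusted p values of up to 0.111 and 0.119, among them the fits that left out any 1 of the 6 arrays other than replicate 3 of the 14-day group.

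Replicate 3 of the untreated wild-type 14-day group lay above the other 2 for Per1, Per2, Per3, Cry2 and Dbp and nearer the other untreated arrays. Without it the log2 differences were -2.95 for Per2, -2.02 for Dbp, -1.49 for Cry2 and -1.65 for Per1, the last with an adjusted p of 0.0537. Leaving out replicate 1 or 2 of that group instead gave -1.38 and -1.41 for Dbp, and -1.04 and -1.11 for Cry2. Over the 34 other settings the Per1 difference ran from -1.65 to -0.50. Median scaling in place of quantile normalization called all 7 lower, in a setting where 644 of all features were called lower in place of 14. Mean raw signals were 260.6 to 288.1 in the 3-day and 174.4 to 243.0 in the 14-day untreated wild-type group, and their part in the difference was not tested. No shared processing of the arms is described, so arm and any batch cannot be told apart.

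In untreated knockout muscle 0 of 7 members differed between the arms, with log2 differences from -0.21 to 0.54 (limma, unadjusted p from 0.185 to 0.957), and 0 of 7 did not overlap, beside 9.91% of all features. There 0.00615% of all features passed, a single 1. Whether the arm difference itself differed between the genotypes was tested as an interaction, a comparison added after the untreated groups had been seen. Ciart differed by 1.58 (adjusted p = 0.0968), Per2 by 2.38 (adjusted p = 0.275), Dbp by 1.76 (adjusted p = 0.308), Per1 by 1.56 (adjusted p = 0.598) and Cry2 by 1.01 (adjusted p = 0.561). None passed, nor did any of the 16262 features, while at an unadjusted p under 0.05 stood 6 of 7 members, beside 7.48% of all features. Ciart was called in 8 of 34 other settings, and the 34 settings called between 0 and 5 of the 7.

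Among treated groups, Dbp was 2.59-fold lower at 14 than at 3 days in wild type (log2 -1.37, SE 0.298, adjusted p = 0.0107), the 1 call of 7 members beside 3.06% of all features called lower. Leaving out replicate 2 or 3 of the 3-day group, or replicate 2 of the 14-day group, ended this call, at adjusted p values of 0.0531 to 0.0651. Mean raw signals were 282.8 to 301.9 in that 3-day group and 183.9 to 244.3 in the 14-day group. In the knockout 0 of 7 passed, beside 3.42% of all features, although 2 members, Cry2 at -0.79 (adjusted p = 0.0556) and Per2 at -1.01 (adjusted p = 0.147), had an unadjusted p under 0.05, beside 20.6% of all features. Cry2 was called there in 8 of 34 other settings.

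**Figure D4:**
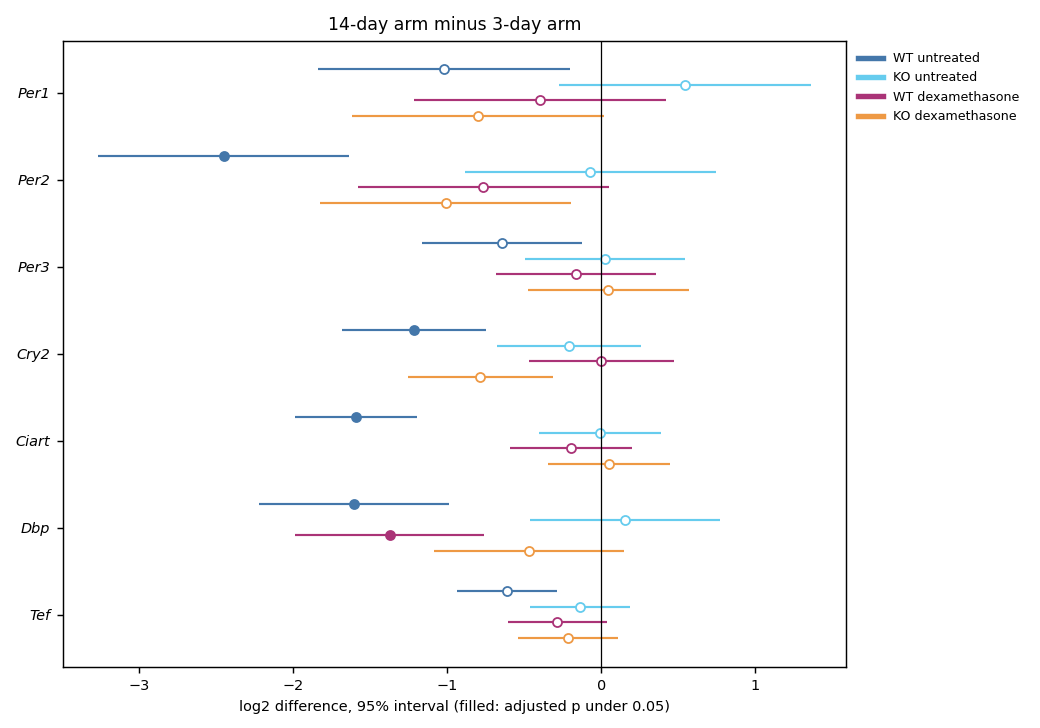
Log2 difference of the 14-day arm from the 3-day arm (horizontal axis) for the 7 measured members in untreated and dexamethasone-treated WT and KO muscle, with 95% intervals as lines and filled points where the adjusted p was under 0.05. In untreated WT muscle all 7 points lie below 0, from -2.45 for Per2 to -0.61 for Tef, and in untreated KO muscle they lie between -0.21 and 0.54.

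Knockout and wild type were compared next, within each treatment and arm. In the untreated 3-day arm 0 of 7 members passed, beside 0.326% of all features, with log2 differences from -0.47 to 0.15 and 0 of 7 at an unadjusted p under 0.05, beside 6.52%. In the untreated 14-day arm 3 of 7 were higher in the knockout, beside 0.141% of all features called higher. These were Per2 at 4.95-fold (log2 2.31, SE 0.394, adjusted p = 0.00290), Ciart at 2.39-fold (log2 1.26, SE 0.192, adjusted p = 0.000653) and Dbp at 2.80-fold (log2 1.48, SE 0.298, adjusted p = 0.0192). The median of the 7 was 1.09, beside 0.02 over all features, and 5 of 7 did not overlap, beside 13.9%.

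This comparison uses the same untreated wild-type 14-day arrays as the arm comparison above, so these sets of values are not separate observations. In that wild-type group Per2 was detected on 2 of 3 arrays, and Ciart lay close to the dimmest detected probes. Per1 differed by 1.09 (adjusted p = 0.347), Per3 by 0.82 (adjusted p = 0.244), Cry2 by 0.61 (adjusted p = 0.354) and Tef by 0.48 (adjusted p = 0.270). Without wild-type replicate 3 the Per1 difference was 1.72 (adjusted p = 0.0158), and over the 34 other settings it ran from 0.57 to 1.72. Dbp lost its call in 7 of 34 settings, at an adjusted p of up to 0.177, among them fits without wild-type replicate 1 or 2 or knockout replicate 2 or 3. Per2 lost its call with only the compared groups in the fit (adjusted p = 0.174).

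Under dexamethasone 0 of 7 members differed between genotypes at 3 days, beside 0.517% of all features, and 0 of 7 at 14 days, beside 0.603%. At an unadjusted p under 0.05 stood 1 member at each time, beside 11% of all features at 3 and 11.4% at 14 days. These were Cry2 at 3 days, at 0.48 (adjusted p = 0.442), and Dbp at 14 days, at 1.19. Dbp arrays read 7.21, 8.56 and 8.26 in the treated knockout and 7.11, 6.65 and 6.68 in the treated wild type at that time. The knockout arrays were all above the wild-type ones, the lowest of them only just, and the adjusted p was 0.0719 (SE 0.298), with a call in 5 of 34 other settings.

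Whether the dexamethasone effect itself changed was tested by interactions. Between 3 and 14 days in wild type it differed for 1 of 7 members, beside 0.148% of all features. That member was Ciart, whose effect was -1.60 at 3 and -0.20 at 14 days, a difference of 1.39 (SE 0.271, adjusted p = 0.0330, lost in 9 of 34 other settings). The treated groups differed by -0.20 and the untreated groups by -1.59 between the arms. On the untreated 14-day arrays undetected probes had a median of 4.34 and the dimmest detected probe lay at 4.70 to 4.75, so that Ciart, at 4.87, had little room to read lower, and a smaller effect of dexamethasone cannot be told apart from this limit. Per2 differed by 1.68 (adjusted p = 0.389) and Cry2 by 1.21 (adjusted p = 0.195), and Dbp by 0.23 (adjusted p = 0.960). In the knockout 0 of 7 passed, beside 0.129%, and 1 of 7 had an unadjusted p under 0.05, Per1, beside 15% of all features.

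Between genotypes the effect differed for 0 of 7 members at 3 days, where 0% of all features passed, and for 0 of 7 at 14 days, where 0.0123% did. At 14 days Per2 had the widest difference, -2.45 (95% interval -3.60 to -1.30, adjusted p = 0.417), followed by Per1 at -1.71 (adjusted p = 0.914) and Ciart at -1.06 (adjusted p = 0.600). For Dbp the difference was -0.29 (95% interval -1.16 to 0.58). At an unadjusted p under 0.05 stood 1 of 7 members at 3 days, Cry2, beside 4.30% of all features, and 4 of 7 at 14 days, Per1, Per2, Cry2 and Ciart, beside 4.86%. A change of effect with genotype was therefore not shown for any member at this number of arrays, and its absence was not shown either.

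Other genes of the loop were read from a list of activators, nuclear receptors and the E-box repressors Bhlhe40 and Bhlhe41, of which 8 of 10 were tested. Under dexamethasone 1 rose and 1 fell at 3 days in wild type, 0 rose and 2 fell at 14 days, 2 rose and 1 fell at 3 days in the knockout, and 1 rose and 0 fell at 14 days. In the same order 1.94%, 1.24%, 2.87% and 1.11% of all features were called higher, beside the shares called lower given above. Arntl, which encodes BMAL1, rose by 1.25 (adjusted p = 0.0156), 1.74 (adjusted p = 0.000722) and 1.37 (adjusted p = 0.00826) in the comparisons other than wild type at 14 days, where it read 0.99 higher (adjusted p = 0.0822). Bhlhe40, also called DEC1, fell by 1.00 and 1.03 in wild type at 3 and 14 days and by 0.91 in the knockout at 3 days, with 0.57 lower at 14 days short of the threshold. Nr1d1, the receptor REV-ERB alpha that represses Arntl, fell by 1.19 in wild type at 14 days alone of the 4.

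Of 7 kinases and ubiquitin ligase subunits that act on PER and CRY proteins 3 were tested. Csnk1d, a casein kinase that phosphorylates PER, rose at 3 days by 0.63 in wild type and 1.10 in the knockout, and the list had no other call under dexamethasone. Of 7 other clock-controlled output genes 5 were tested, and 1 call was made, Usp2, a deubiquitinase, which fell by 0.79 in the knockout at 14 days. Between the untreated wild-type arms Usp2 was 1.39 lower in the 14-day arm (adjusted p = 0.00157) and Nr1d2, the paralogue of Nr1d1, was 1.21 higher (adjusted p = 0.0375). In the untreated 14-day arm Usp2 was 0.97 higher in the knockout than in wild type (adjusted p = 0.0262).

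**Figure D5:**
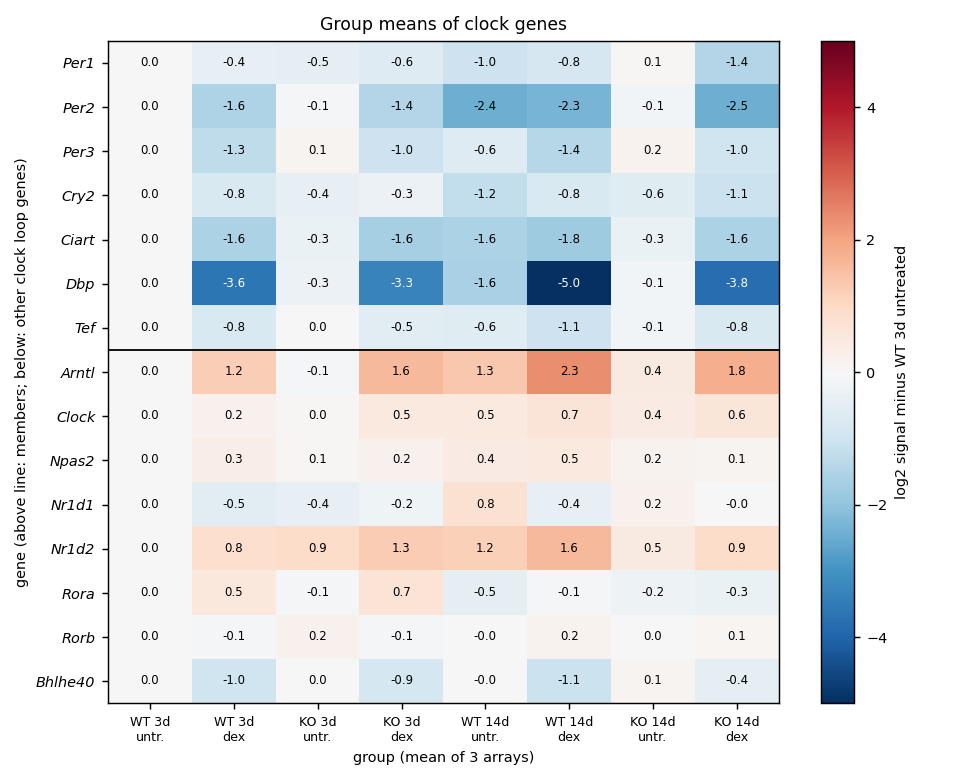
Mean log2 signal of each group (columns, 3 arrays each) minus that of untreated WT muscle of the 3-day arm, for the 7 measured members (above the line) and 8 other clock loop genes (below). Blue is lower and red higher, with the value in each cell, and Arntl is higher in the treated groups and in untreated WT muscle of the 14-day arm while Per2, Ciart and Dbp are lower there.

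The members were also set against each other over the 24 arrays, as a description. Pearson's r was 0.88 for Dbp with Per3 and 0.88 for Ciart with Tef, and lowest for Per3 with Cry2, at 0.29. These values hold the differences between groups. After the mean of each group was taken out, r was 0.81 for Per1 with Per2 and 0.77 for Per2 with Dbp, while Per3 with Tef stood at -0.57 and Dbp with Per3 at 0.13. Cry2 stood at 0.63 with Per1, 0.66 with Per2 and 0.59 with Dbp, and Per1 with Dbp at 0.61. Pooled over the groups, deviations thus ran together in Per1, Per2, Cry2 and Dbp, while Per3 and Ciart stood at -0.25 to 0.23 with these 4. Groups did not spread equally. Untreated wild type of the 14-day arm had SDs of 1.17 for Per1, 0.97 for Per2, 0.72 for Dbp and 0.49 for Cry2. Replicate 3 of that group was its highest array for all 4, and the part of this group in these r values was not tested.

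Genes of the whole table were ranked by their correlation with each member over the same 24 arrays. Nearest to Dbp were Mmp2 at 0.96, a matrix metalloproteinase, with Hacd1 and Col1a1 at 0.93 each, and at the opposite end Pdk4 at -0.95, Cdkn1a at -0.95 and Fbxo32 at -0.95. Nearest to Per2 were Gdf10 at 0.89, Usp2 at 0.89 and Rnaseh2b at 0.88, and Arntl was the most opposed, at -0.87. Ciart ran with Smco1 at 0.87, Aamdc at 0.86 and Cibar1 at 0.84, and against Sphk2 at -0.89. Tef ran with Ifngr2 at 0.92, Per3 with Col24a1 at 0.89, Cry2 with Pex19 at 0.85 and Per1 with Timp3 at 0.82. The arrays differ in genotype, treatment and arm, so these values hold the differences between groups, and the likenesses carry no test.

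Where the array that stood apart, replicate 3 of the knockout 3-day dexamethasone group, was left out, all 5 members called in that comparison stayed called. Their log2 fold changes were then -3.03 for Dbp, -1.53 for Per2, -1.21 for Ciart, -0.95 for Per3 and -0.65 for Tef, at adjusted p values of 2.06e-06 to 0.0477.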

How the data were processed

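The 24 samples were total RNA from muscle, hybridized to Illumina beadchips after biotin labelling, per the labels. The deposited non-normalized table holds a signal intensity for every probe and array and, in the column beside it, a detection p-value, per the file headers. The authors' deposited value table holds linear intensity values and served as an alternative, with a floor of 16. The submitters' processing notes name BeadStudio 3.2.3 without a role. No source used here gives the authors' normalization or tests. Replicates are numbered as in the non-normalized table. The value table numbers 11 arrays of 5 groups otherwise. Every array column had a sample.

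The neqc function of limma 3.58.1 in R 4.3.3 was applied to the signals. It corrects background from the detection p-values, adds an offset of 16, normalizes by quantiles and takes log2. The offset makes fold changes of dim probes smaller than the change in message. Probes with a detection p under 0.05 on at least 3 of 24 arrays were kept, 20769 in all. Of all 46632 probes, the platform annotation named 1 gene for 29976, several for 10 and none for 16646. A gene was read by the kept probe with its highest mean. Unnamed probes stood singly. This gave 16262 features, 11010 of them named. Levels of different probes are not compared. Of the symbols, 0 needed updating against RefSeq names.

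A single limma model held the 8 group means of all 24 arrays (16 residual degrees of freedom), without a block. P values were adjusted by the method of Benjamini and Hochberg over all features within a comparison, with a threshold of 0.05, and SE is the moderated standard error. The script was checked on simulated data. The number of arrays, not a read depth, limits the precision. Members and gene lists were chosen with earlier results of these data known. All members are named; from the lists, counted whole, up to 4 genes are named, and 3 genes at each end of the ranking by correlation were taken, some left unnamed for length.

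Other settings were the value table, median scaling, an offset of 50, a stricter filter and none, the mean of a gene's probes, fits of the compared groups alone, array weights, a replicate block and each array left out. Whether equal replicate numbers mark paired samples was checked on deviations from the group means: of 84 pairs with the same number 23 correlated over 0.1, with a median r of 0.01, against -0.01 for pairs of different numbers, and with the value table's numbers 35 pairs did so, with a median r of 0.08. The share of different-number pairs over 0.1 was not computed, so this check cannot decide on pairing. Neither set of numbers was taken as pairs.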

Additional observations from a re-analysis of the deposited data

Results flagged for a closer look

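The dexamethasone effect on Ciart in wild-type muscle read 1.39 higher on the log2 scale at 14 than at 3 days in a test of the difference itself (limma, SE 0.271, adjusted p = 0.0330). All 3 untreated and all 3 treated arrays of the 14-day arm lay between 4.47 and 5.06, while the 3-day arrays were at 6.29 to 6.55 untreated and 4.74 to 5.0 treated. The call was lost in 9 of 34 other settings, at adjusted p values of up to 0.120, 8 of these being fits without 1 array, which was untreated replicate 1 or 2 or treated replicate 2 or 3 of the 3-day arm, or any untreated replicate or treated replicate 2 of the 14-day arm. Of the treated 14-day arrays 1 of 3 detected Ciart, and since the untreated level of that arm, 4.87, was already close to the dimmest detected probes, at 4.70 to 4.75, a smaller effect cannot be told apart from the detection limit.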

How the results depend on the processing

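Across 119 member values, 7 members in 17 comparisons, and 34 other settings for each, 10 of processing and 24 with 1 array left out, 3906 values gave the call reported, 140 gave another and 0 reversed. Of 26 calls 12 held in all 34 settings. Numbers of members called moved past 1.5 times as follows. With the authors' deposited value table the genotype difference of the 14-day effect had 1 call in place of 0, and the genotype difference of the untreated arms 1 in place of 0. With median scaling the untreated wild-type arms had 7 in place of 4, the treated wild-type arms 2 in place of 1, the treated knockout arms 1 in place of 0, treated genotypes at 14 days 1 in place of 0 and the genotype difference of the untreated arms 3 in place of 0. With an offset of 50 the last had 1. Without a filter on dim probes the untreated wild-type arms had 2 and the wild-type difference between times 0 in place of 1. With only the compared groups in the fit, knockout dexamethasone at 3 days had 3 in place of 5, untreated genotypes at 14 days 1 in place of 3 and treated wild-type arms 2. With array weights the counts were 3 for wild-type dexamethasone at 14 days, 7 for untreated genotypes at 14 days, 1 for treated genotypes at each time, 2 for treated knockout arms, 3 for the wild-type and 1 for the knockout difference between times, 3 for the genotype difference at 14 days and 5 for that of the untreated arms. The cause of these shifts was not tested.

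The replicate block called Ciart in the genotype difference of the untreated arms, 1 in place of 0 (log2 1.58, adjusted p = 0.0110), and moved no other member count past 1.5 times. A block with the value table's numbers, an alternative chosen after seeing the data, called 2 members in place of 1 for wild-type dexamethasone at 14 days, and 1 in place of 0 between the treated knockout arms. Leaving out arrays in turn gave, for dexamethasone, 4 to 6 members in wild type and 3 to 5 in the knockout at 3 days, and 1 to 1 and 3 to 6 at 14 days. Between untreated genotypes it gave 0 to 0 at 3 and 2 to 4 at 14 days, and between treated ones 0 to 0 and 0 to 1. Between arms the counts were 2 to 4 and 0 to 0 in untreated wild type and knockout, and 0 to 1 in each treated pair. The difference of effects between times gave 0 to 1 in wild type and 0 to 0 in the knockout, that between genotypes 0 to 0 at 3 and 0 to 1 at 14 days, and that of the untreated arms 0 to 2.

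Counts over all features moved more. Dexamethasone in wild type called 630 at 3 days (581 to 1656 in the other processing settings) and 488 at 14 days (323 to 686), and in the knockout 873 (196 to 2107) and 532 (290 to 2862). Untreated genotypes called 53 (48 to 135) and 57 (34 to 2681) at 3 and 14 days, and treated ones 84 (26 to 1704) and 98 (75 to 204). Arms called 26 (21 to 918) and 1 (1 to 716) in untreated wild type and knockout, and 788 (554 to 4012) and 556 (9 to 1564) in treated. Differences between times called 24 (14 to 110) and 21 (3 to 1072), those between genotypes 0 (0 to 8) and 2 (0 to 47), and that of the untreated arms 0 (0 to 352). With 1 array left out, dexamethasone called 392 to 759 and 245 to 624 in wild type at 3 and 14 days, and 493 to 1332 and 298 to 809 in the knockout. Untreated genotypes called 37 to 61 and 35 to 159, treated ones 40 to 96 and 46 to 158, untreated arms 11 to 50 and 1 to 11, and treated arms 137 to 1389 and 88 to 1409. Differences between times called 9 to 35 and 5 to 368, those between genotypes 0 to 1 and 1 to 3, and that of the untreated arms 0 to 4. Median scaling moved the share called higher between untreated wild-type arms from 46.2% to 29.8%. Groups of 3 arrays, and levels of Ciart, Per1 and Per2 near the detection limit in the low groups, limit these values.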
